A study of Mus musculus with 6 samples.

Results

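The cytosolic ribosomal protein genes encode the proteins of the ribosome that works in the cytosol, outside mitochondria. They were chosen by name from the deposited table: symbols that begin with Rpl or Rps and a digit or with Rplp and a digit, and Rpsa, without the S6 kinase genes and without symbols marked as pseudogenes. This gave 88 of the 22838 genes in the table. Of these, 77 were core genes, whose proteins make up the standard ribosome, with 31 in the small (40S) subunit and 46 in the large (60S) subunit. The others were 9 paralogs of core genes and 2 further matches of the names, Rpl37rt (a retrotransposed copy) and Rps19bp1 (a protein that binds Rps19 and is no ribosomal protein).

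RNA had been taken from the marrow of the tibia and femur of mice on a 129/C57BL/6 background at 3 weeks of age. There were 3 wild-type animals, with a mean body weight of 12.3 g, and 3 Cbx2-/- animals, with a mean of 4.0 g. Cbx2 encodes a chromodomain subunit of Polycomb repressive complex 1, and the series asks how it acts on bone and fat cell differentiation after birth. The labels describe neither the allele nor the sex of the animals, and the smaller size of the Cbx2-/- mice cannot be told apart from the genotype.

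A ribosome holds nearly every core protein in a single copy, so cells make the proteins of both subunits in matched amounts. The mRNAs of ribosomal proteins are short, abundant and stable. In vertebrates most of them begin with a C followed by a run of pyrimidines, the 5′ terminal oligopyrimidine tract, through which mTOR signalling controls their translation. Bone marrow is a tissue where these genes have a known role, since mutations in several of them cause Diamond-Blackfan anaemia, a failure of red cell precursors.

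Levels are given in FPKM, fragments scaled to the length of the transcript and to the mapped fragments of the library. Differences are Cbx2-/- minus wild-type on the log2(FPKM + 1) scale with their SE. They were tested with limma on the 12006 genes that had at least 1 FPKM in at least 3 of 6 libraries, and a gene was called changed at a Benjamini-Hochberg adjusted p under 0.05 over all of them. This filter kept 86 of the 88 genes and 76 of the 77 core genes.

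The starts of 4 core genes are shown, Rpl7a and Rpl27a for the longest pyrimidine runs among the matched core genes and Rplp2 and Rpl38 for shorter runs over the start of an abundant mRNA, with 2 paralogs beside them. Each window holds the 40 bases before and the 20 bases after the start of transcription in RefSeq (GRCm38.p6), 5′ to 3′, and capitals mark the longest run of C and T.
Rpl7a (chr2:26910767-26910826, plus strand): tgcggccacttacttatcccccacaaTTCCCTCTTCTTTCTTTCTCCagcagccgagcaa
Rpl27a (chr7:109519155-109519214, plus strand): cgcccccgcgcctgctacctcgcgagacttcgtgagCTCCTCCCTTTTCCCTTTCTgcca
Rplp2 (chr7:141447611-141447670, plus strand): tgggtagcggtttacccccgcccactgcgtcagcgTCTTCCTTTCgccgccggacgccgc
Rpl38 (chr11:114668540-114668599, plus strand): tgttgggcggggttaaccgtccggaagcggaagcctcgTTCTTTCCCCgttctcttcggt
Rpl22l1 (chr3:28805468-28805527, plus strand): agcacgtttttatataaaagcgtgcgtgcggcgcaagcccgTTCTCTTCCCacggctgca
Rpl3l (chr17:24727786-24727845, plus strand): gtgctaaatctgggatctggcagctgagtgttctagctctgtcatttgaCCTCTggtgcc
The longest run had 21 bases in Rpl7a, 20 in Rpl27a, 10 in Rplp2, 10 in Rpl38, 10 in Rpl22l1 and 5 in Rpl3l. In Rpl7a it covered the 14 bases before the start and 7 after it.

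Of the 77 core genes, 57 had an entry in the RefSeq promoter table. A run of at least 8 pyrimidines stood in the window of 29 of these 57, or 50.9%, against 17 of 68 mitochondrial ribosomal protein genes, 22.8% of 9115 tested genes and 6485 of all 27025 entries. Among the paralogs it stood in 3 of 8, and in Rpl39l and Rps27l it lay wholly before the start. The runs of some core genes, such as Rpl22 and Rpl27, also lay before the start and outside the mRNA. These counts therefore do not measure the 5′ terminal tract. The letters CGGAAG, which are part of the motif bound by GABPA and other ETS factors, were found on either strand of the 300-base promoter in 40 of 57 core genes, or 70.2%. The same letters were found in 54.4% of the mitochondrial ribosomal protein genes, 32.4% of the tested genes and 17.2% of all entries. The printed window of Rpl38 holds them, while the promoters of Rpl22l1 and Rpl3l had no match.

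A few facts of the libraries bear on what follows. Cbx2 was at 2.90, 3.83 and 2.75 FPKM in wild-type replicates 1 to 3 and at 2.11, 1.87 and 1.88 FPKM in the Cbx2-/- replicates, lower in each of them but not lost. The Cbx2-/- replicates differed among themselves. The summed FPKM of 13 skeletal muscle markers was 466 and 544 in Cbx2-/- replicates 1 and 2, 14.7 in replicate 3 and 24.5 to 37.8 in the wild-type libraries. Of these markers, 5 were at 0 in at least 1 wild-type library. Of 18 erythroid markers 15 were called lower in Cbx2-/- marrow, of 16 B-cell precursor markers 15 were lower, and of 13 neutrophil markers 7 were higher. Among all tested genes, 8.31% were called lower and 8.8% higher. RNA from bulk marrow cannot tell fewer cells of a type from less RNA per cell.

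No core ribosomal protein gene was called higher or lower in Cbx2-/- marrow by limma. Of 76 tested core genes, 0 passed the adjusted threshold and 0 had an unadjusted p under 0.05, while 17.1% of all tested genes were called, 8.8% higher and 8.31% lower. The lowest unadjusted p was 0.111, for Rpl34, with an adjusted p of 0.26. The difference was above 0 for 34 core genes and below 0 for 42, with a median of -0.02 against 0.02 over all tested genes. The sign of this core median flipped under quantile normalization (0.03), under scaling to equal summed FPKM (0.01) and under scaling to summed FPKM without the ribosomal protein genes (0.01). The groups overlapped in all 76 core genes, whereas in 39.6% of tested genes the 3 Cbx2-/- values lay wholly above or below the wild-type values.

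Core genes were among the most abundant transcripts of the marrow. Their mean over all 6 libraries ran from 0.006 FPKM (Rpl26) to 6811 FPKM (Rplp1) with a median of 1590 FPKM, and 57 of 77 exceeded 1000 FPKM. Between 56 and 61 of the 100 highest genes of a library were ribosomal protein genes. The 4 core genes under 100 FPKM were Rps15a, Rpl34, Rpl30 and Rpl26, and the last 3 share their place in the table with a copy, as described below. Without these 4 and Rps27, the lowest core gene was Rpl22 at 118 FPKM.

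Rplp1, with Rplp2 part of the acidic stalk of the large subunit that recruits elongation factors, had the highest level. It measured 7352, 5920 and 7032 FPKM in wild-type replicates 1 to 3 and 7448, 9768 and 3350 FPKM in Cbx2-/- replicates 1 to 3. The Cbx2-/- group thus held both the highest and the lowest library, and the difference was -0.11 ± 0.42 (SE, limma adjusted p = 0.892). Rplp2 measured 2924, 2926 and 3937 FPKM in wild-type marrow and 3848, 4149 and 2316 FPKM in Cbx2-/- marrow, a difference of 0.04 ± 0.31 (SE, limma adjusted p = 0.943). The same order of the Cbx2-/- libraries, with replicate 2 on top and replicate 3 at the bottom, was seen for both stalk genes.

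Rpl41, which encodes the shortest protein of the large subunit, measured 6223, 4814 and 6785 FPKM in wild-type libraries. In Cbx2-/- libraries it measured 4985, 7388 and 2969 FPKM, and the difference was -0.30 ± 0.38 (SE, limma adjusted p = 0.65). Apart from Rps27, this was the lowest difference of any core gene, and its groups overlapped.

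In the small subunit the highest genes were Rps12, Rps29 and Rps20. Rps12 was at 4051, 4181 and 5969 FPKM in wild-type and at 5486, 6275 and 3083 FPKM in Cbx2-/- libraries, with a difference of 0.02 ± 0.35 (SE, limma adjusted p = 0.974). Rps29, a zinc-binding protein in the head of the subunit, was at 4559, 4664 and 4748 FPKM in wild-type libraries, a narrow range. In the Cbx2-/- libraries it stood at 5242, 5247 and 2558 FPKM, so that replicates 1 and 2 lay above every wild-type library and replicate 3 below. Rps20 was at 3644, 3869 and 4702 FPKM in wild-type and at 4087, 4911 and 2540 FPKM in Cbx2-/- libraries, with groups that overlapped.

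Of the genes listed for Diamond-Blackfan anaemia, Rps7, Rps10, Rps19, Rps24, Rps26, Rpl5, Rpl11 and Rpl35a are described here, and none of them was called, against 17.1% of all tested genes. Their differences ran from -0.14 (Rps26) to 0.04 (Rpl11), and each had a limma adjusted p of at least 0.821. A fit chosen after the values were seen, described below, left out Cbx2-/- replicates 1 and 2 and so kept 1 Cbx2-/- library. In that fit the differences of these genes ran from -0.81 (Rps26) to -0.30 (Rps24). Rps19, the gene in which the disease was first traced, measured 1425, 1362 and 1558 FPKM in wild-type libraries. In Cbx2-/- libraries it measured 1538, 1969 and 1059 FPKM, again with the highest value in replicate 2 and the lowest in replicate 3. Rpl5 and Rpl11 form with 5S rRNA the particle that binds Mdm2 and stabilises p53 when assembly fails. Rpl5 was at 400, 406 and 433 FPKM in wild-type and at 412, 461 and 315 FPKM in Cbx2-/- libraries. Rpl11 was at 1666, 1429 and 1611 FPKM in wild-type and at 1695, 2177 and 1126 FPKM in Cbx2-/- libraries. Their differences were -0.08 ± 0.21 (SE) and 0.04 ± 0.29 (SE), smaller than their errors.

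The core genes moved together from library to library. Taken as each gene's difference from its own wild-type mean, the median over the 76 core genes was -0.04, -0.10 and 0.12 in the wild-type replicates and 0.12, 0.36 and -0.51 in the Cbx2-/- replicates. The SD of the 3 medians was 0.446 in Cbx2-/- and 0.116 in wild-type libraries, while over all tested genes the medians of the Cbx2-/- replicates were 0.05, 0.06 and -0.04. Both subunits shared the pattern: the Cbx2-/- medians were 0.11, 0.32 and -0.52 for 40S genes and 0.14, 0.36 and -0.48 for 60S genes.

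**Figure D1:**
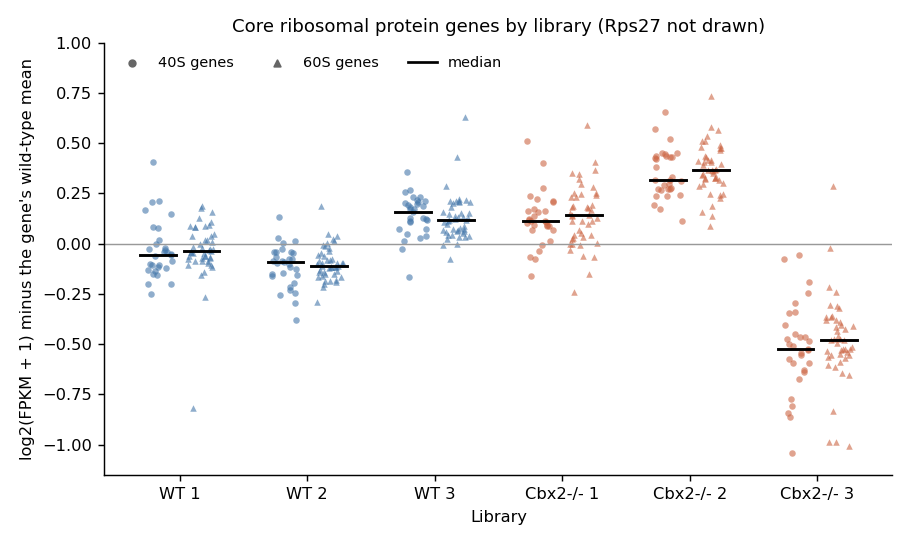
Each point is 1 core gene in 1 library, as log2(FPKM + 1) minus that gene's mean over the 3 wild-type libraries; circles are 40S and triangles 60S genes, and bars are medians over all tested genes of the subunit. Wild-type libraries lie near 0, Cbx2-/- replicate 2 lies above them (60S median 0.36) and Cbx2-/- replicate 3 below them (60S median -0.48); Rps27, which has a copy listed at its position, is counted in the median but not drawn.

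Cbx2-/- replicate 3 had the lowest of the 6 values in 71 of 76 core genes, against 33.6% of all tested genes. The exceptions were Rps23, Rps25, Rps27, Rpl34 and Rpl38. Cbx2-/- replicate 2 had the highest value in 72 of 76 core genes, against 17.9% of tested genes, with Rps3a1, Rps27, Rpl7 and Rpl30 as exceptions. Both held for 68 core genes, against 8.35% of tested genes. In 29 of 76 core genes, replicates 1 and 2 lay above and replicate 3 below every wild-type library, against 8.04% of tested genes.

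In size, Cbx2-/- replicate 3 held a median of 0.701 times the wild-type mean FPKM, with quartiles of 0.663 and 0.763. Replicate 2 held 1.27 times and replicate 1 held 1.08 times the wild-type mean. The median coefficient of variation of a core gene was 11.1% among wild-type and 28.6% among Cbx2-/- libraries, and it was larger in the Cbx2-/- group for 74 of 76 genes. Over all tested genes the medians were 10.9% and 20.3%. When each library was divided by 1 factor, the median ratio of its core genes to their mean level, the median coefficients were 6.53% in wild-type and 6.72% in Cbx2-/- libraries. By construction this factor removes what the core genes have in common, so the median spread that remains says how far core genes depart from it. Over all tested genes, divided by the same factors, the median coefficients were 13.3% in wild-type and 31.1% in Cbx2-/- libraries.

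The difference between the genotypes therefore depended on which Cbx2-/- libraries were in the fit. Without Cbx2-/- replicate 3, 75 of 76 core differences were above 0, with a median of 0.24, and 3 core genes were called higher, against 17.2% of tested genes. These were Rps23 (0.58 ± 0.17 SE, limma adjusted p = 0.0307), Rpl14 (0.49 ± 0.14 SE, limma adjusted p = 0.0352) and Rpl23 (0.37 ± 0.12 SE, limma adjusted p = 0.0489). With Cbx2-/- replicates 1 and 2 left out, 75 of 76 differences were below 0, with a median of -0.51, and 28 core genes were called lower, against 22.6% of tested genes. That fit was chosen after the data were seen and has 1 Cbx2-/- library, which is assumed to vary like the wild-type libraries. Its most negative calls were Rps2 (-1.04 ± 0.22 SE, limma adjusted p = 0.008) and Rplp1 (-1.01 ± 0.21 SE, limma adjusted p = 0.00787). A fit with estimated library weights gave Cbx2-/- replicate 3 a weight of 0.126 and replicate 1 a weight of 5.83, and called 5 core genes higher, against 27.3% of tested genes.

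The genes named for these calls and exceptions were chosen after their values were seen. Rps23, a protein of the decoding centre, measured 1222, 964 and 1299 FPKM in wild-type libraries. In Cbx2-/- libraries it measured 1640, 1814 and 1092 FPKM, so replicates 1 and 2 exceeded every wild-type library while replicate 3 lay within their range. Rpl38 measured 2245, 2412 and 3646 FPKM in wild-type and 3486, 3798 and 2660 FPKM in Cbx2-/- libraries, with groups that overlapped throughout. Rps2 measured 2916, 2122 and 2582 FPKM in wild-type and 2820, 3617 and 1223 FPKM in Cbx2-/- libraries, and its replicate 3 was 0.481 times the wild-type mean.

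After division by the core factor, no member was called by limma, against 7.99% of tested genes, and 2 of 86 had an unadjusted p under 0.05. Relative to the other core genes, Rps23 was at 1250, 1035 and 1202 FPKM in wild-type and at 1492, 1421 and 1543 FPKM in Cbx2-/- libraries, a difference of 0.36 ± 0.13 (SE, limma adjusted p = 0.128). The groups did not overlap on this scale. The other was the paralog Rpl22l1, with a difference of -0.40 ± 0.16 (SE, limma adjusted p = 0.179). Leaving out Rps27, 71 of 75 core genes differed by less than 0.25 on this scale, and the range was -0.30 (Rpl41) to 0.36 (Rps23).

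As a share of a library's summed FPKM, the ribosomal protein genes took 19.1%, 19.4% and 22.2% in wild-type libraries and 21.2%, 24.2% and 16.2% in Cbx2-/- libraries. The group means were 20.2% ± 1.70 (SD, n = 3) and 20.5% ± 4.09 (SD, n = 3), a difference smaller than the spread in either group. Rows of copies listed at Rpl26, Rpl30 and Rpl34, described below, are not part of these shares. Counting them, the shares were 19.9%, 20.2% and 23.1% in wild-type and 22.1%, 25.2% and 16.8% in Cbx2-/- libraries. Summed FPKM itself ranged from 599601 in Cbx2-/- replicate 3 to 741192 in Cbx2-/- replicate 2. Haemoglobin genes (symbols beginning with Hba or Hbb), another large block of transcripts, took 17.8%, 14.7% and 13.9% in wild-type libraries and 10.9%, 7.02% and 20.5% in Cbx2-/- libraries. In both groups the library with the highest haemoglobin share had the lowest ribosomal protein share, and the one with the lowest haemoglobin share had the highest. Both shares are parts of the same total. With haemoglobin taken out of the denominator, the ribosomal protein share was 23.3%, 22.8% and 25.8% in wild-type and 23.8%, 26.1% and 20.3% in Cbx2-/- libraries, so the order of the Cbx2-/- libraries stayed while their range narrowed.

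**Figure D2:**
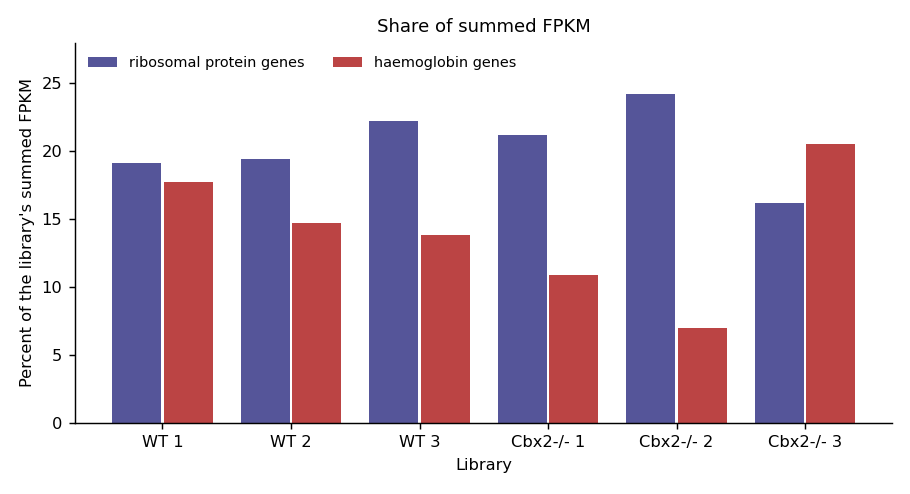
Bars give the percent of each library's summed FPKM held by the 88 ribosomal protein genes and by the haemoglobin genes; each bar is 1 library, so there is no error bar. The ribosomal protein bar is highest in Cbx2-/- replicate 2 (24.2%) and lowest in Cbx2-/- replicate 3 (16.2%), the library where the haemoglobin bar is highest (20.5%).

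Some other marker lists also differed between Cbx2-/- replicate 3 and replicates 1 and 2, while in others all 3 lay on the same side of wild-type. The summed FPKM of 15 proliferation markers was 1514 and 1811 in Cbx2-/- replicates 1 and 2 and 686 in replicate 3, against 2339 to 2672 in wild-type libraries. Of the 15, 3 were called lower, against 8.31% of tested genes. The 6 promyelocyte markers summed to 5075, 4543 and 2401 FPKM in the Cbx2-/- replicates, against 1926 to 2134 FPKM in wild-type libraries. Of the 6, 3 were called higher, against 8.8% of tested genes. The 18 erythroid markers summed to 1868, 1768 and 2366 FPKM in the Cbx2-/- replicates, against 3873 to 4635 FPKM in wild-type libraries. In the Cbx2-/- replicates, 10 macrophage markers summed to 1351, 1210 and 1500 FPKM and 10 adipocyte markers to 2110, 2537 and 2731 FPKM. In wild-type libraries these sums were 719 to 852 FPKM and 230 to 457 FPKM. No marker of these lists was at 0 in any wild-type library, apart from 1 adipocyte marker. The part of these markers, and of the muscle markers above, in the levels of the ribosomal protein genes was not tested.

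In the table, 13 of the 88 genes shared their listed position with another row. For 4 core genes this row was a copy of the gene. Rows at the other shared positions were not summed. Rpl5 and Rps4l, for example, were listed over wider spans than in RefSeq. Rps27rt, Gm15772, Gm12191 and Rpl34-ps1 are listed in the table at the positions of Rps27, Rpl26, Rpl30 and Rpl34, while RefSeq places them on chromosomes 9, 5, 11 and 6. RefSeq classes Gm15772 and Gm12191 as transcribed pseudogenes, and Rps27rt and Rpl34-ps1 as protein-coding. In all libraries but wild-type replicate 2 at Rps27, the row of the copy held almost all of the summed value. How reads were assigned to the rows is not known. In GENCODE vM21 transcripts, 64.0% of the 50-base words of Rps27 also occurred in Rps27rt, 51.9% of those of Rpl26 in Gm15772, 47.8% of those of Rpl30 in Gm12191 and 37.9% of those of Rpl34 in Rpl34-ps1. The starts of Rps27 and Rps27rt are shown because they show how far these mRNAs match at their 5′ ends, with 20 bases before the start and 30 bases of the transcript in RefSeq (GRCm38.p6) and the shared stretch in capitals.
Rps27 (chr3:90213619-90213668, minus strand): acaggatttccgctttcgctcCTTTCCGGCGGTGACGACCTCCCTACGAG
Rps27rt (chr9:114982710-114982759, minus strand): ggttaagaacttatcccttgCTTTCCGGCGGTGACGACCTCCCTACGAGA
The shared stretch is 38 bases long and runs past the end of both windows. It begins at base 2 of Rps27 and at base 1 of Rps27rt. At the same offset, 29 of the first 30 bases of the Rps27 transcript were identical, against 8 of the 50 bases before its start.

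Rps27, a zinc-finger protein of the small subunit, was listed at 5.04, 2049 and 24.7 FPKM in wild-type and at 6.87, 79.3 and 9.21 FPKM in Cbx2-/- libraries. Rps27rt was listed at 3686, 2047 and 4914 FPKM in wild-type and at 3835, 5319 and 4246 FPKM in Cbx2-/- libraries. In wild-type replicate 2 Rps27 held 50.0% of the sum of both, and in the other 5 libraries between 0.137% and 1.47%. The difference of -1.87 ± 1.96 (SE) printed for Rps27 rests on this 1 library. Summed over both rows the locus had 3691, 4096 and 4939 FPKM in wild-type and 3842, 5399 and 4255 FPKM in Cbx2-/- libraries, a difference of 0.08 ± 0.27 (SE, limma adjusted p = 0.877).

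Rpl26 was listed between 0.00289 and 0.0147 FPKM in all 6 libraries, under the level for testing. Its copy Gm15772 was at 2237, 2256 and 2715 FPKM in wild-type and at 2575, 2836 and 1598 FPKM in Cbx2-/- libraries. Rpl30 was listed at 4.89 to 17.1 FPKM and Gm12191 at 1009 to 1550 FPKM. Rpl34 was listed at 13.9 to 26.4 FPKM and Rpl34-ps1 at 1418 to 2526 FPKM. Summed with their copies, Rpl26, Rpl30 and Rpl34 had differences of -0.08, 0.11 and -0.09, each with a limma adjusted p of at least 0.815. The sign of Rpl34 turned with the sum, from 0.35 for its own row, and the order of the Cbx2-/- libraries became that of the other core genes.

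**Figure D3:**
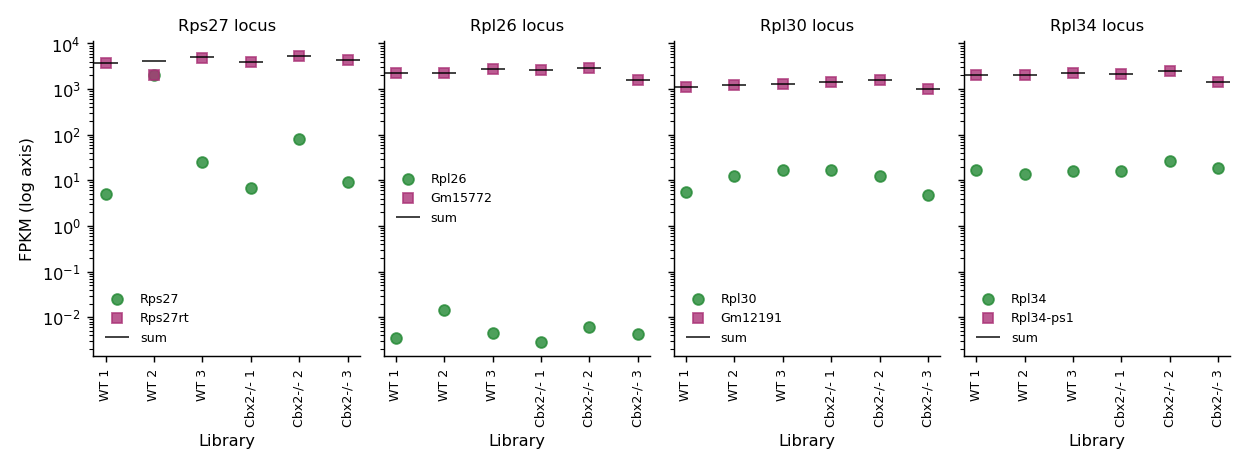
Points give the FPKM (log axis) of 4 core genes (circles), of the copy listed at the same position (squares) and of their sum (dashes) in each library. The copy carries nearly all of the sum, as for Rpl26 (at most 0.0147 FPKM) and Gm15772 (1598 to 2836 FPKM), except at Rps27 in wild-type replicate 2, where the rows stand at 2049 and 2047 FPKM.

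Sequence sharing with other genes was common across the core genes. In GENCODE vM21 transcripts a median of 52.9% of the 50-base words of a core gene, the length of the reads, also occurred in the transcript of another gene, and 44 of 77 core genes shared over 50%. The median core gene shared words with 9 other genes, and Rpl7a with 120. For 77 mitochondrial ribosomal protein genes the median was 0%, and 41 of them shared none. How reads of such shared words were assigned is not known, so levels of single core genes are uncertain by an amount that was not measured. Rps15a, at 51.4 to 92.5 FPKM, is low beside its neighbours in the subunit. It shared 49.1% of its words, below the core median of 52.9%, and 34.9% with Rps15a-ps7. A link between this sharing and its level was not tested.

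The 9 paralogs of core genes ranged from undetected to the level of the core. Rpl10l, an intronless copy of Rpl10 known from testis, was listed at 0 in all 6 libraries. Of the 8 paralogs tested, none was called by limma, against the 17.1% of tested genes. As with the core genes, this depended on the libraries. With Cbx2-/- replicates 1 and 2 left out, a fit with 1 Cbx2-/- library, the paralog differences ran from -1.16 (Rps27l) to 0.35 (Rps27rt). Rpl22l1 was at -1.05 and Rpl36al at -0.69 in that fit. With estimated library weights, Rpl3l (0.57, limma adjusted p = 0.0198) and Rps4l (0.51, limma adjusted p = 0.0116) were called higher, against 27.3% of tested genes. Apart from Rps27rt, the highest was Rpl36al, the autosomal copy of X-linked Rpl36a, at 593 to 738 FPKM in wild-type and 404 to 825 FPKM in Cbx2-/- libraries. It made 49.7% to 61.3% of the level of Rpl36a over the 6 libraries, with no separation of the groups.

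Rpl22l1 was the paralog closest to its core partner, Rpl22, an RNA-binding protein of the large subunit. Rpl22l1 measured 133, 142 and 188 FPKM in wild-type libraries and 132, 159 and 73.4 FPKM in Cbx2-/- libraries, with a difference of -0.40 ± 0.30 (SE, limma adjusted p = 0.41). Rpl22 measured 110, 119 and 122 FPKM in wild-type and 131, 155 and 73.7 FPKM in Cbx2-/- libraries. As a percent of Rpl22, Rpl22l1 was at 121.6%, 119% and 155% in wild-type libraries and at 101%, 103% and 99.6% in Cbx2-/- libraries. It was the only pair of the 8 tested whose groups did not overlap, and the pairs with Rps27 rest on its uneven row. Among all tested genes, taken by level and not by ratio, the groups did not overlap in 39.6%. The mean log2 ratio of Rpl22l1 to Rpl22 was 0.39 ± 0.21 (SD, n = 3) in wild-type and 0.01 ± 0.02 (SD, n = 3) in Cbx2-/- libraries, a difference of -0.37. The exact two-sided permutation test gave p = 0.1, the smallest that 3 against 3 allows, and p = 0.8 after adjustment over the 8 pairs. Rpl22l1 shared 57.3% of its words with transcripts of other genes, 56.5% with the pseudogene Gm15421.

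The paralogs with restricted expression stayed at low levels. Rpl3l, the muscle form of Rpl3, was at 0.499, 1.18 and 1.56 FPKM in wild-type and at 2.0, 1.64 and 1.24 FPKM in Cbx2-/- libraries, or 0.0449% to 0.162% of Rpl3. Its difference was 0.36 ± 0.22 (SE, limma adjusted p = 0.309), and the groups overlapped. The muscle markers, at 466 and 544 FPKM in sum in Cbx2-/- replicates 1 and 2, stood beside the 2 highest Rpl3l values, and their part in them was not tested. Rpl39l, the testis form of Rpl39, was at 5.34, 3.35 and 2.84 FPKM in wild-type and at 3.03, 1.88 and 2.43 FPKM in Cbx2-/- libraries, a difference of -0.47 ± 0.22 (SE, limma adjusted p = 0.179). Rps4l, a copy of Rps4x, was at 20.7, 25.9 and 19.6 FPKM in wild-type and at 31.0, 39.2 and 17.1 FPKM in Cbx2-/- libraries. Its difference was 0.32 ± 0.29 (SE, limma adjusted p = 0.498) and became 0.65 without Cbx2-/- replicate 3 (limma adjusted p = 0.0174, in a fit that called 17.2% of tested genes higher). With replicates 1 and 2 left out instead, its sign turned, to -0.34 in that fit with 1 Cbx2-/- library.

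Rps27l, a paralog of Rps27 that p53 can induce, was at 241, 221 and 289 FPKM in wild-type and at 251, 281 and 111 FPKM in Cbx2-/- libraries, with a difference of -0.32 ± 0.35 (SE, limma adjusted p = 0.585). Its ratio to Rps27 and that of Rps27rt rest on the row of Rps27, which varied from 5.04 to 2049 FPKM. Rps27rt itself had a difference of 0.41 ± 0.37 (SE, limma adjusted p = 0.498). Rpl7l1 was at 26.5 to 33.7 FPKM in wild-type and 26.1 to 34.8 FPKM in Cbx2-/- libraries, a difference of 0.01 ± 0.17 (SE). Of the 2 further matches, Rpl37rt was at 5.85 to 11.5 FPKM and Rps19bp1 at 16.4 to 29.5 FPKM over the 6 libraries, with differences of 0.25 and -0.02 and limma adjusted p of 0.51 and 0.96.

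**Figure D4:**
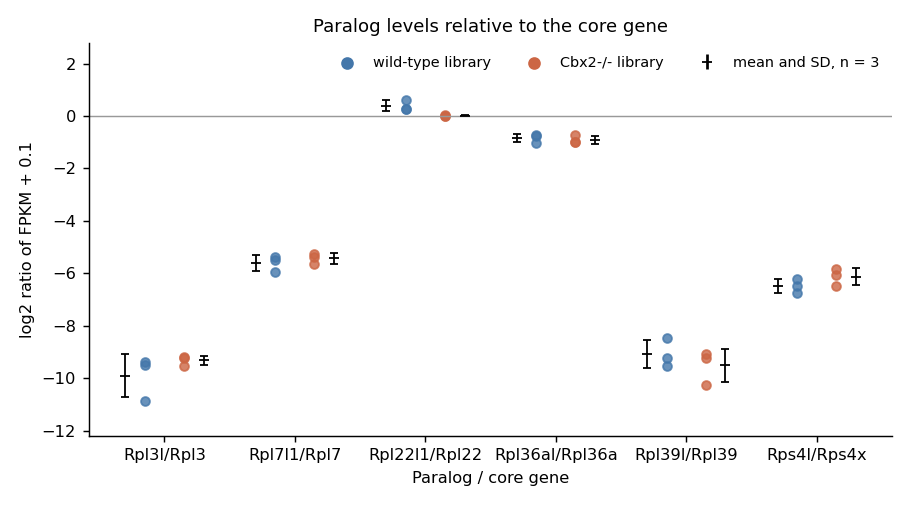
Points give the log2 ratio of a paralog's FPKM to that of its core gene (0.1 added to both) in each library, and bars the mean and SD of the 3 wild-type (left) and 3 Cbx2-/- (right) libraries. The Rpl22l1/Rpl22 groups do not overlap (means 0.39 and 0.01), and all other drawn pairs do; the pairs with Rps27 and the undetected Rpl10l are not drawn.

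Genes that work with the ribosome were read from lists beside the members. Fau encodes a ribosomal protein fused to a ubiquitin-like peptide, and Gnb2l1 (Rack1) is the scaffold on the small subunit. Neither was called. Fau measured 2399, 2292 and 2683 FPKM in wild-type and 2560, 3057 and 1683 FPKM in Cbx2-/- libraries. Gnb2l1 measured 1544, 1263 and 1328 FPKM in wild-type and 1440, 1738 and 886 FPKM in Cbx2-/- libraries. Both had their highest value in Cbx2-/- replicate 2 and their lowest in replicate 3, in the same order as most core genes.

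Of 17 elongation factors and other genes with pyrimidine-tract mRNAs, 0 were called, with a median difference of -0.12. Of 33 initiation factors, 0 were called, with a median of -0.03. Over all tested genes 17.1% were called. In Cbx2-/- replicate 3 both lists were low, with medians of -0.49 and -0.49 from the wild-type mean. The 77 mitochondrial ribosomal protein genes had Cbx2-/- library medians of 0.18, 0.24 and -0.67. Of these, only Mrpl49 was called lower, against 8.31% of tested genes. It went from 27.9 ± 2.27 FPKM (SD, n = 3) to 16.1 ± 4.56 FPKM (SD, n = 3), a difference of -0.79 ± 0.21 (SE, limma adjusted p = 0.0399).

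Genes that build ribosomes had their highest Cbx2-/- library median in replicate 1. Of 59 assembly factors, 3 were called higher and 0 lower, with a median difference of 0.28, and their Cbx2-/- library medians were 0.65, 0.30 and -0.04. Called were Riok2, a kinase of late 40S maturation, Rrp1b, a nucleolar protein, and Wdr43, a factor of early small-subunit assembly. Riok2 measured 4.45, 4.29 and 4.86 FPKM in wild-type and 7.86, 6.72 and 6.32 FPKM in Cbx2-/- libraries (0.52 ± 0.13 SE, limma adjusted p = 0.0313). Rrp1b measured 4.23, 4.47 and 4.55 against 9.62, 6.17 and 6.89 FPKM (0.64 ± 0.17 SE, limma adjusted p = 0.0359). Wdr43 measured 11.5, 10.5 and 12.4 against 21.8, 16.8 and 15 FPKM (0.59 ± 0.17 SE, limma adjusted p = 0.0481). All 3 Cbx2-/- values exceeded all 3 wild-type values in each of these genes, which were named because they were called. Over all tested genes, the groups did not overlap in 39.6%.

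RNA polymerase I transcribes the large rRNA precursor. Of its 14 listed genes, 3 were called higher and 0 lower. The median difference of the list was 0.14, with a range of -0.40 to 0.62. The summed FPKM of the list averaged 354 in wild-type and 336 in Cbx2-/- libraries. The largest subunit Polr1a measured 7.13, 6.63 and 6.61 FPKM in wild-type and 11.3, 9.03 and 10.4 FPKM in Cbx2-/- libraries (0.53 ± 0.13 SE, limma adjusted p = 0.0306). The second largest, Polr1b, measured 7.06, 5.88 and 6.60 against 11.8, 10.4 and 9.55 FPKM (0.62 ± 0.14 SE, limma adjusted p = 0.0192). The subunit Cd3eap measured 5.89, 5.58 and 6.04 against 8.86, 10.6 and 7.58 FPKM (0.54 ± 0.15 SE, limma adjusted p = 0.0402). Of 15 regulators of ribosomal protein synthesis, only Rps6ka1, an S6 kinase gene, was called higher, from 73.5 ± 6.18 FPKM (SD, n = 3) to 109 ± 9.75 FPKM (SD, n = 3), a difference of 0.56 ± 0.16 (SE, limma adjusted p = 0.0493). Each of these 8 related genes lost its call in 4 or 5 of the 6 fits that left out 1 library, with the direction kept in all of them. Scaling to summed FPKM without the haemoglobin genes ended 6 of these 8 calls. These shares of called genes, 3 of 59 and 3 of 14 higher, stand beside 8.8% higher among all tested genes.

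**Figure D5:**
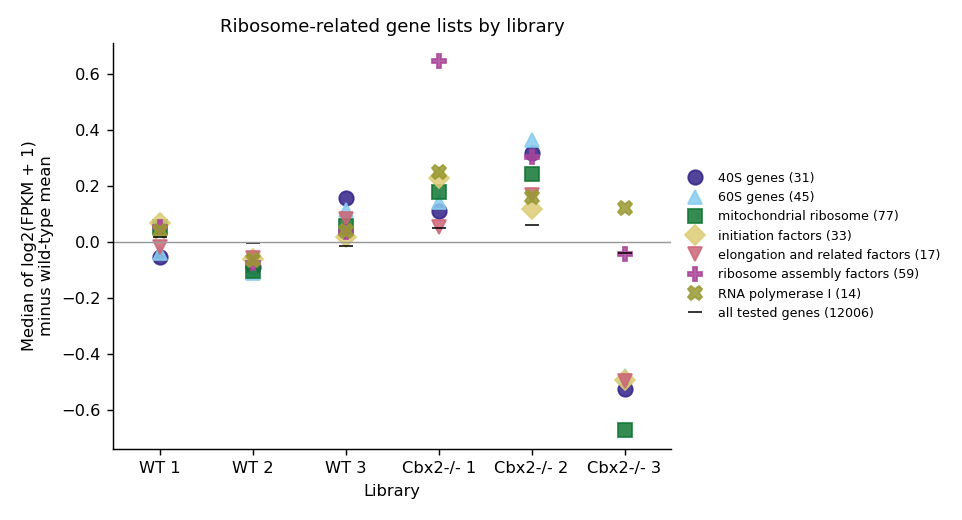
Symbols give the median over a list of log2(FPKM + 1) minus the wild-type mean, for each library and list, with the number of genes in the key. In Cbx2-/- replicate 3 the cytosolic and mitochondrial ribosomal protein genes and the initiation and elongation factors lie between -0.67 and -0.48, whereas assembly factors stand at -0.04 and RNA polymerase I genes at 0.12.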

How the data were processed

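Libraries were stranded, poly(A)-based and read as 50-base single reads, per the labels' protocols. The submitters' processing notes name FastQC 0.11.5, TopHat2 2.1.0, Cufflinks 2.2.1 and mm10, without roles. The authors deposited 1 FPKM value per gene and library, and all member values had the status OK. No source used here states read totals, the annotation or the strand setting, so depth is unknown and no counting interval is given. FPKM is relative, so a value falls when other transcripts take more reads. Replicates are 3 animals per genotype, per the labels.

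Values were tested as log2(FPKM + 1), which understates changes of low genes, in a two-sided limma fit with a variance trend and no covariate (limma 3.58.1, R 4.3.3), over the genes that reached 1 FPKM in 3 or more libraries; the code was tested on simulated data. Ratios to core genes used FPKM + 0.1 and an exact permutation test. Called genes of related lists were named by adjusted p, up to 3 per direction; core genes by level (6 highest, 4 lowest) and by the anaemia list; other names are marked as chosen afterwards. The members and lists were chosen with earlier results of these data known. Promoters and positions are from RefSeq (GRCm38.p6, the assembly of mm10), counted from 1, and shared 50-base words from 1 GENCODE vM21 transcript per core gene against all others. Figures were drawn with matplotlib 3.10.9. Results of 2 genes of the lists are not reported here.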

Additional observations from a re-analysis of the deposited data

How the results depend on the processing

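No core gene was called under other pseudocounts, filters, scalings (including to the core median, and with rows at 1 locus summed), without the variance trend, or without any 1 library other than Cbx2-/- replicate 3. The core median difference stayed between -0.05 and 0.03 under these settings with all libraries. Leaving out 1 library at a time gave 0 to 3 core genes higher, 0 lower and core medians of -0.19 to 0.24; array weights gave 5 higher. With both Cbx2-/- replicates 1 and 2 left out, chosen after seeing the data, 28 core genes were lower, with a median of -0.51. The share difference moved from 0.298 points to between -1.55 and 2.49 when 1 library was left out, and to -0.523 points without haemoglobin. The Rpl3l/Rpl3 difference of 0.59 became 0.30 with a pseudocount of 1. With the replicate number as a replicate block, 0 core genes were called and the median stayed -0.02, while all called genes went from 2055 to 1368. Same-numbered libraries correlated in their deviations at 0.194, -0.179 and -0.103, and differently numbered ones at -0.26 to 0.274. With 3 libraries per group these values cannot decide whether the numbers pair the libraries, and the labels state no pairing. Calls over all genes ranged from 849 (without wild-type replicate 1) to 5962 (array weights). Of the 8 called genes of related lists, 6 lost the call with no filter, 6 when scaled to summed FPKM without haemoglobin genes, 7 with the replicate block, 7 when scaled to the core median, 4 with Cbx2-/- replicates 1 and 2 left out, and 1 each under 4 further settings. A share without mitochondrially encoded genes was not run, because the table has 0 such rows. With 3 libraries per group and no read counts, precision rests on the spread between animals.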
